A study of Homo sapiens with 16 samples.

Results

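The genes described here are the 370 DoG-producing genes, of 3505 in all (10.6%), that at least 1 of the 16 libraries listed with a DoG region of its own but that had no row in the authors' table of DoG FPKM. DoGs (downstream-of-gene transcripts) are readthrough RNAs that continue past the annotated end of a gene, and the other 3135 DoG-producing genes had such a row. The libraries came from HEK293, an established line of human embryonic kidney cells, either under control conditions or after 9 h in 200 mM sorbitol with 100 µg/mL cycloheximide (OSCHX, the DoG-inducing condition, which joins osmotic stress to a block of translation). RNA of each condition was extracted in 4 ways: with conventional AGPC, with hiAGPC, in which the lysate is heated so that semi-extractable RNA also enters the aqueous phase, and with SERIPH, which yields an aqueous 1st-step fraction and an interphase 2nd-step fraction. There were 2 biological replicates for every preparation (4) and condition, and all replicates were of the 1 cell line. Conventional AGPC and hiAGPC were run side by side on shared samples, and both SERIPH fractions derive from a single extraction, so the 16 libraries are not 16 separate cultures. The lists and the FPKM of DoGs hold no expression of genes, so the line was not checked against its markers. The FPKM table was rounded to 0.01 and held no counts, so the depth of each library is unknown.

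As background, transcription by RNA polymerase II normally ends soon after the nascent RNA is cut at a poly(A) signal. Osmotic stress weakens this step for many genes, and the polymerase then runs on for many kilobases. A readthrough transcript of that length can enter the next gene on the same strand, cross it and leave at its far end. RNA past the end of the downstream gene can then come from either of the genes, and a caller that assigns each stretch to a single gene has to choose.

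That arrangement was present for all 370 genes. In at least 1 of the 16 libraries, the first base past the end of each gene lay inside the DoG region of another gene upstream on the same strand. Of the 3135 genes with an FPKM row, this held for 2, GEMIN4 (inside the ABR region) and MOGAT2 (inside the SERPINH1 region). For the 368 genes found in GENCODE v44, the whole gene body lay inside the covering region. Both states were rarely seen in the same library. Of 946 listings of these genes, 5 fell in a library that also covered the gene, among them those of NIP7 (under VPS4A) and OSBPL3 (under CYCS). They were listed with their own region in some libraries and lay inside the region of the upstream gene in others. Covering in any library is close to what chose the genes and is a description, not a test.

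The FPKM table also gave a length for each DoG. For 3077 of the 3135 DoGs found in both sources, the length equalled that of the longest listed region within 1 base, and for the other 58 it was longer. Covering genes made up 57 of those 58. In all 57, the table's region ended exactly at the farthest end of a listed region of a gene it covered. For example, DR1 had a region of at most 220.2 kb in any library but 421.1 kb in the table, and TGIF2 had at most 20 kb and 78.6 kb in the table. The FPKM of a covering gene therefore spans the bodies of the genes it covers, where their starts were known. The covered genes have no FPKM of their own. In the 57 cases the stretch also spans the DoG regions of the covered genes. For the other covering genes it is the longest listed region, which need not reach the end of every such DoG region.

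The ends of a few of these genes are shown because readthrough begins there. Each line gives the last 30 bases of the gene as the region lists place its end (GRCh38, strand of the gene), with the poly(A) hexamers AATAAA or ATTAAA in capitals where present.
TRA2B, chr3:185914558-185914587, minus strand: tataatgtaaagacttaaaagtgacaagaa
IGF2BP2, chr3:185643130-185643159, minus strand: actttgcAATAAAatgagtcatacacgttt
SRSF3, chr6:36605882-36605911, plus strand: ccagggcaaaATTAAAccttccagaaaagt
CDKN1A, chr6:36687368-36687397, plus strand: aagaacaAATAAAtgggcttttgggaagga
C6orf89, chr6:36928935-36928964, plus strand: tttgcaATTAAAagtgttggttgataagaa
HNRNPC, chr14:21207375-21207404, minus strand: ccctagttcacatcacattgaccaaaaaaa
Of these genes, TRA2B, SRSF3 and HNRNPC are covering genes, and the others lie inside the regions of TRA2B or SRSF3. The ends shown are not typical. The covered genes FGD2, PI16, NDRG2, OR5AU1, OR6S1, EGILA and POLR3K had neither hexamer in these 30 bases, nor did the covering gene LUC7L. In the last 30 bases, a hexamer was found in 188 of the 370 genes (50.8%). It was found in 148 of 295 covering genes with an FPKM row (50.2%) and in 1854 of all 3505 (52.9%). In the last 50 bases on the strand of the gene, 1 of the 2 hexamers was found in 232 of the 370 genes (62.7%), in 186 of 295 covering genes with an FPKM row (63.1%) and in 2292 of all 3505 listed genes (65.4%). These shares were not tested against each other.

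The state of the genes differed by preparation and condition. In the control libraries, 20 and 18 of the 370 genes were listed with conventional AGPC, 14 and 17 in the SERIPH 1st-step fraction, 22 and 24 with hiAGPC, and 28 and 28 in the SERIPH 2nd-step fraction. Between 0 and 9 genes were covered in a control library, and the rest were neither listed nor covered. Under the DoG-inducing condition, 49 and 42 were listed with conventional AGPC and 32 and 38 in the 1st-step fraction, with 1 to 4 covered. With hiAGPC, 211 genes were listed in each replicate and 98 and 77 were covered. In the SERIPH 2nd-step fraction, 116 and 76 were listed, and 250 and 287 were covered.

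**Figure D1:**
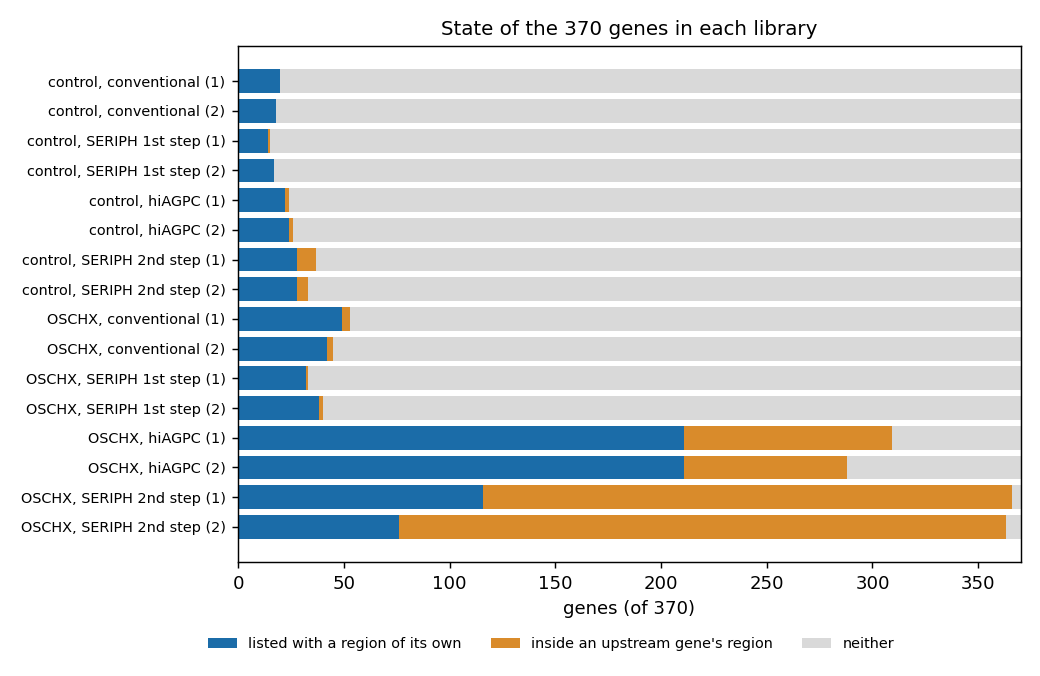
Number of the 370 genes (horizontal axis) that each of the 16 libraries (rows, replicate in brackets) listed with a region of its own, held inside an upstream gene's region, or neither. Under the DoG-inducing condition the listed genes number 211 and 211 with hiAGPC and 116 and 76 in the SERIPH 2nd-step fraction, where 250 and 287 are covered.

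Under the DoG-inducing condition, the 2nd-step fraction thus left 4 and 7 of the 370 genes neither listed nor covered, against 61 and 82 with hiAGPC. Across these groups, the lower count of listed genes in the 2nd-step fraction went with a higher count of covered genes. Relative to all genes listed in a library, these genes made up 11.8% and 12.1% with hiAGPC under the DoG-inducing condition, 11.7% and 11.1% with conventional AGPC, and 4.86% and 3.10% in the 2nd-step fraction. In control libraries the share was between 4.06% and 5.70%. Of the 370 genes, 343 were covered in at least 1 2nd-step library of the DoG-inducing condition, and 244 in such libraries alone. Covering is close to what chose the genes, so the low number in neither state there follows in part from the choice. Since the listings chose the genes too, these counts are given without a test.

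The 2 replicates of the 2nd-step fraction seldom listed the same genes of this set. Under the DoG-inducing condition, 21 of the 171 genes listed in either replicate were listed in both (12.3%). For the genes with an FPKM row, 2010 of 2634 were listed in both (76.3%). With hiAGPC the shares were 163 of 259 (62.9%) and 1392 of 1722 (80.8%). Most of the difference was an exchange of state. In the 2nd-step fraction, 147 genes were listed in 1 replicate and covered in the other, 194 were covered in both and 3 were listed in 1 replicate and neither listed nor covered in the other. With hiAGPC, 53 genes were listed in 1 replicate and covered in the other, and 58 were covered in both. Of the 370 genes, 244 were covered in 2nd-step libraries of this condition alone, and a covered gene was seldom listed in the same library. The low share listed in both 2nd-step replicates thus follows in part from how the set was chosen and is no measure of replicate agreement.

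The direction of the exchange between preparations was mostly one way under the DoG-inducing condition. Of the 163 genes listed in both hiAGPC replicates, 160 were covered in at least 1 SERIPH 2nd-step library and 90 were covered in both, and 3 were listed in both. The reverse, covered in both hiAGPC replicates and listed in both 2nd-step replicates, was seen for 6 genes. Conventional AGPC gave the same order. Of 37 genes listed in both of its replicates, 22 were covered in both hiAGPC libraries and 29 in both 2nd-step libraries. In the control libraries 20 of the genes were listed in both hiAGPC replicates, of which 14 were also listed in both 2nd-step replicates and 3 were covered in both. Of the 370 genes, 343 were covered in at least 1 2nd-step library of the DoG-inducing condition, and covering is close to what chose them. The direction of the exchange thus follows in part from the choice and is a description.

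These genes made up most of the DoG-producing genes that hiAGPC listed and the 2nd-step fraction did not. Counting a gene when both replicates listed it, 265 of 1555 hiAGPC genes (17.0%) under the DoG-inducing condition were found with hiAGPC alone, and genes of the set were 163 of those 1555 (10.5%). Of the 265, 160 (60.4%) belonged to the present set, and all 160 were covered in at least 1 2nd-step library. Every gene of the set was covered in some library, so this count follows in part from how the set was chosen. Of the 131 that neither 2nd-step replicate listed, 91 (69.5%) lay inside an upstream region there. In the opposite direction, 741 genes were found in the 2nd-step fraction alone, of which 18 (2.43%) belonged to the set. Conventional AGPC against hiAGPC gave 49 genes found with conventional AGPC alone, of which 25 belonged to the set and 24 were covered in at least 1 hiAGPC library. In the control libraries 52 genes were found with hiAGPC alone, of which 6 belonged to the set and 3 were covered in the 2nd-step fraction.

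IGF2BP2 (GRCh38 chr3:185643130-185825042, minus strand), an RNA-binding protein that binds the mRNA of insulin-like growth factor 2, gave the cleanest example. Its region was 10 kb in all 8 control libraries and in all 4 conventional and 1st-step libraries under the DoG-inducing condition. In the other 4 libraries, the hiAGPC and SERIPH 2nd-step libraries of OSCHX cells, it was covered. The covering gene was TRA2B, a regulator of alternative splicing, whose gene end lies 271.4 kb upstream of that of IGF2BP2. TRA2B had no region in control libraries. Its region was 40 and 35 kb with conventional AGPC, 10 and 25 kb in the 1st-step fraction, 361.4 kb in both hiAGPC libraries, and 743.1 and 760 kb in the 2nd-step fraction. The 2 groups of libraries did not overlap, and the listing of IGF2BP2 ended where the TRA2B region passed it. ZNF543, a zinc finger gene, had the same pattern at a shorter range. It was listed at 10 kb in 11 libraries, and ENSG00000268205 covered it with a region of 52.2 kb in all 4 hiAGPC and 2nd-step libraries of OSCHX cells.

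Genes listed under control conditions were in the minority. Of the 370, 39 were listed in at least 1 control library, 33 of which were covered in a library of the DoG-inducing condition, and 331 were listed in no control library. POLR3K, a subunit of RNA polymerase III, was listed in the most libraries (13). Its region was 15 kb in 7 control libraries and 20 kb in the other, and 10 to 15 kb in the conventional and 1st-step libraries of OSCHX cells. It was 35 kb in 1 hiAGPC replicate. The region of LUC7L, a component of the splicing machinery 142.6 kb upstream, was 15 kb in that replicate and 175 kb in the other, where it covered POLR3K. In the 2nd-step fraction it was 177.6 and 180 kb, and POLR3K was covered in both replicates. UBQLN1, which carries ubiquitinated proteins to the proteasome, was listed in all 8 control libraries at 20 to 30 kb and at 115 kb in both hiAGPC replicates under the DoG-inducing condition. In the 2nd-step fraction it lay inside a region of C9orf64 of 595 and 590 kb.

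Other genes had a long region of their own in some of these libraries and were covered in 1. TFAM, which activates transcription of mitochondrial DNA, had a region of 10 kb in every control, conventional and 1st-step library that listed it. Under the DoG-inducing condition its region was 110 kb in both hiAGPC libraries and in 1 2nd-step library. The other 2nd-step library held it inside a region of 140 kb that began at UBE2D1, a ubiquitin-conjugating enzyme gene, whereas the UBE2D1 region was 10 kb in the other 3. MFSD11, a membrane transporter gene, had 305 kb in 3 of these 4 libraries. In the remaining hiAGPC library it was covered by a region of 372.1 kb from SNHG16, a small nucleolar RNA host gene, which reached exactly 305 kb past the end of MFSD11. SNHG16 had 20 kb in the 3 libraries that listed MFSD11. EYA4, a transcriptional coactivator with a phosphatase domain, was listed at 10 to 20 kb in the control, conventional and 1st-step libraries that held it. It had 210 kb in both hiAGPC libraries and 130 kb in 1 2nd-step library of the DoG-inducing condition, and was covered in the other. In SHOC2, a scaffold of RAS signalling, the coverer itself changed. It lay inside a region from PDCD4, an inhibitor of translation, in both hiAGPC libraries (360.9 and 355 kb), and inside one from RBM20, a splicing factor, in 1 2nd-step library (412.8 kb). The other 2nd-step library listed SHOC2 at 235 kb. ZNF782 was covered only in a control hiAGPC library, where the MFSD14CP region was 135.4 kb against 10 kb in the other libraries that listed MFSD14CP.

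The 370 genes lay inside the regions of 322 covering genes, in 395 pairs. A single covering gene was found for 345 and a pair of them for 25. Of the covering genes, 295 had an FPKM row and 27 belonged to the covered set themselves. Most covered 1 gene (265), 46 covered 2, 6 covered 3 and 5 covered 4. The end of the covering gene lay a median of 86.9 kb upstream of that of the covered gene (11.98 to 714.6 kb). The stretch between the covering gene and the start of the covered gene had a median of 55.1 kb and was never under 10.2 kb, and it was 100 kb or more in 109 pairs. The distance to the nearest named gene upstream on the same strand had a median of 30.6 kb for the covered genes, 16.9 kb for the covering genes and 39.5 kb for the genes neither covered nor covering. Covered genes had a median length of 19.0 kb, covering genes 26.6 kb and the rest 33.2 kb.

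HNRNPC, whose protein binds pre-mRNA in the nucleus, was among the 5 genes that covered 4 others, and its region differed between replicates. The region was 10 kb in all 8 control libraries. In OSCHX cells it was 30 and 20 kb with conventional AGPC and 25 and 20 kb in the 1st-step fraction. With hiAGPC it was 564.0 kb in replicate 1 and 45 kb in replicate 2. In replicate 2, OR5AU1 and NDRG2 were listed downstream with regions of 75 and 365 kb. OR5AU1 is an olfactory receptor gene, and NDRG2 belongs to the N-myc downstream-regulated family. Most of the stretch that replicate 1 assigned to HNRNPC was thus assigned to other genes in replicate 2. In the 2nd-step fraction the HNRNPC region was 579.0 and 564.0 kb. The lncRNA gene EGILA lay inside a covering region in all 4 hiAGPC and 2nd-step libraries, and OR6S1, another olfactory receptor gene, was listed at 15 kb in the 2nd-step library where the HNRNPC region of 564.0 kb stopped short of it.

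SRSF3, which encodes a splicing factor, covered CDKN1A (the cell cycle inhibitor p21), C6orf89, PI16 and FGD2. Its region was 10 kb in every control library, 40 to 70 kb in the conventional and 1st-step libraries under the DoG-inducing condition, 300 and 340 kb with hiAGPC, and 442.3 kb in both 2nd-step libraries. CDKN1A was listed at 10 kb in the 2 conventional libraries, where the SRSF3 region of 70 kb stopped short of its start at 70.5 kb. It was covered in all 4 hiAGPC and 2nd-step libraries. With hiAGPC, C6orf89 was listed at 15 kb in replicate 1 and covered in replicate 2, PI16 was listed at 35 and 25 kb, and FGD2 was listed at 10 kb in replicate 2. All 3 were covered in both 2nd-step libraries.

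**Figure D2:**
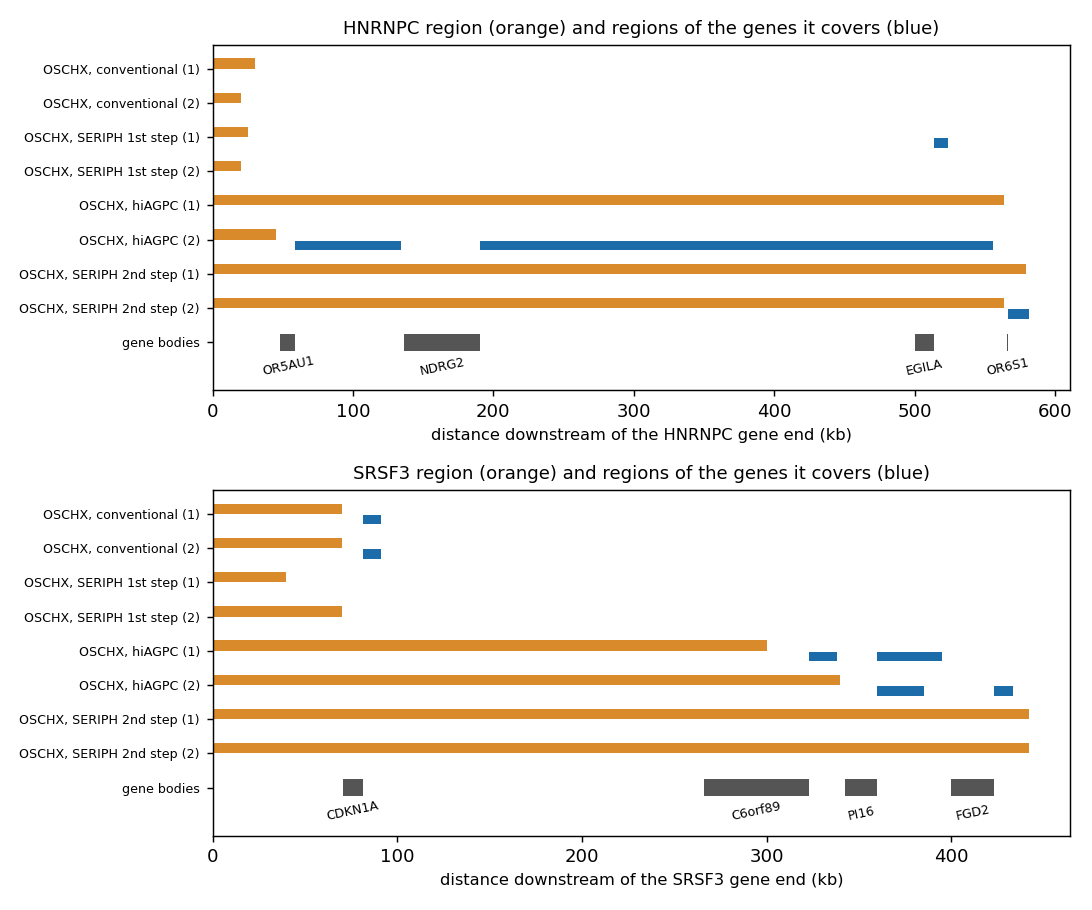
DoG regions of HNRNPC (top) and SRSF3 (bottom) in orange and of the genes they cover in blue, as distance in kb past the end of the covering gene, for the 8 libraries of the DoG-inducing condition. Grey boxes are the covered gene bodies. Blue regions appear where the orange region stops short of the gene end, as for HNRNPC at 45 kb in hiAGPC replicate 2.

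SRSF1, another splicing factor gene, covered CUEDC1, the mitochondrial ribosomal protein gene MRPS23 and CCDC182 in all 4 hiAGPC and 2nd-step libraries. Its region was 30 kb in every control library, 40 kb in every conventional and 1st-step library of the DoG-inducing condition, 621.4 kb in both hiAGPC libraries, and 656.1 and 666.4 kb in the 2nd-step fraction. CCDC182 was listed in the conventional and 1st-step libraries at 30 to 120 kb. PABPC1, which encodes the cytoplasmic poly(A)-binding protein, had no region in the control, conventional and 1st-step libraries. It had 347.9 and 538.8 kb with hiAGPC and 553.8 kb in both 2nd-step libraries, and covered SNX31, ANKRD46 and RNF19A. SNX31 was listed at 45 kb in both conventional libraries. The histone gene H2BC17 covered OR2B6 and the zinc finger genes ZNF165, ZSCAN16 and ZKSCAN8P1, with 105 and 85 kb with conventional AGPC, 60 and 210.7 kb with hiAGPC and 330.7 kb in both 2nd-step libraries.

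AMD1 and SLC41A1 did not follow this order. AMD1, an enzyme gene of polyamine synthesis, had 565.5 and 122.9 kb with hiAGPC but 65 kb in both 2nd-step libraries. GTF3C6, a subunit gene of transcription factor TFIIIC, was accordingly covered in both hiAGPC libraries and listed at 35 and 50 kb in the 2nd-step fraction. RPF2, a ribosome assembly factor gene, was listed at 405 and 397.9 kb there and at 410 kb in the hiAGPC replicate that did not cover it. SLC41A1, a magnesium transporter gene, was listed in the 2nd-step fraction alone, at 10 kb in 1 replicate and 331.5 kb in the other. The latter covered RAB29, NUCKS1, SLC45A3 and ELK4. NUCKS1, which encodes a nuclear DNA-binding protein, was listed in 10 libraries at 10 to 30 kb.

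The longest regions of covered genes were found under the DoG-inducing condition. SNX27, a sorting nexin gene, had 455.7 kb in hiAGPC replicate 2 and lay inside a TUFT1 region in the other 3 hiAGPC and 2nd-step libraries. MYBL2, which encodes the cell cycle transcription factor B-Myb, had 295 and 408.1 kb with hiAGPC. In the 2nd-step fraction it lay inside regions of 525 and 540 kb that began at IFT52, a gene of ciliary transport, whose own region was 15 and 10 kb with hiAGPC. OAZ3 was listed in 1 2nd-step library, at 393.1 kb. The farthest reach past a covered gene was 697.0 kb, from SYNCRIP, an hnRNP gene, past SNX14. SNX14 was listed at 75 kb in both conventional libraries and at 55 and 60 kb in the 1st-step fraction under the DoG-inducing condition, and was covered in all 4 hiAGPC and 2nd-step libraries and in both 2nd-step control libraries.

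Some covering regions stopped just before the listed gene. Under the DoG-inducing condition, this was within 5 kb in 295 of 819 combinations of a pair and a library with the covered gene listed (36.0%). The region ended farther before the gene in 242 (29.5%), and the covering gene was not listed in 186 (22.7%). Both conditions are pooled in the next values. In the 671 cases in which a library listed both genes of a pair, the covering gene's region ended a median of 3.63 kb before the start of the other gene. Of 998 combinations of a pair and a library with the covered gene listed, it ended within 5 kb before that gene in 313 (31.4%), farther before it in 261 (26.2%) and inside its gene body in 88 (8.82%). In 327 (32.8%) the covering gene was not listed at all. With hiAGPC under the DoG-inducing condition, 183 of 453 (40.4%) ended within 5 kb before the gene. In control libraries 18 of 179 (10.1%) did, and in 141 (78.8%) the covering gene was not listed. Regions were extended in windows of 5 kb, which sets the resolution of these distances.

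**Figure D3:**
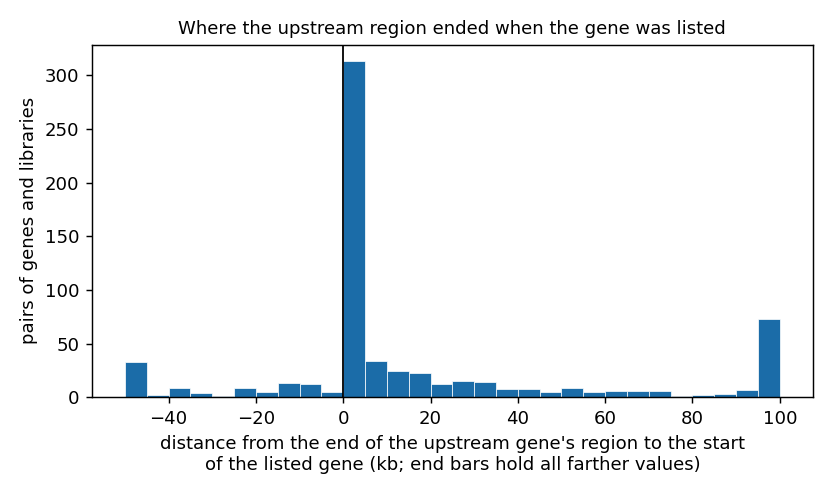
Distance in kb (horizontal axis, bars of 5 kb) from the end of the upstream gene's region to the start of the listed gene, over pairs of genes and libraries in which both were listed (vertical axis, number of cases). Positive values lie before the gene and negative values inside or past its start, and 313 cases fall in the bar from 0 to 5 kb.

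The lengths of the regions also differed in their step. Of the 13532 regions, 541 did not have a length in whole multiples of 5 kb. Of these, 372 covered a gene of the set, and 326 ended a whole multiple of 5 kb past a gene they covered, on the grid that starts at that gene's end. The SNHG16 region of 372.1 kb is 1 of them. Another 260 covering regions, of 632 in all, had lengths in whole multiples of 5 kb.

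The readthrough past the same gene end was longer in the 2nd-step fraction than the gene's own region with hiAGPC. For the 90 genes listed in both hiAGPC libraries and covered in both 2nd-step libraries under the DoG-inducing condition, the own region had a median of 40 kb and the covering region reached a median of 81.5 kb past the same point. The mean reach was longer for 82 genes, shorter for 3 and equal for 5. In 71 of the 90, both reaches exceeded both own regions. A different measure compares each gene's own regions in both preparations. Over the 1290 DoGs shared by hiAGPC and the 2nd-step fraction under this condition, 46% had both 2nd-step regions longer than both hiAGPC regions, and 2.87% had both shorter. The 90 genes were chosen by their states in the same libraries, so their comparison is a description. CTPS2, which encodes a CTP synthase, had 205 and 260 kb with hiAGPC, whereas the RBBP7 region reached 318.7 and 330 kb past it in the 2nd-step fraction. CTPS2, like DR1, TGIF2, GEMIN4, MOGAT2, NIP7 and OSBPL3 above, was named after its values were seen.

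**Figure D4:**
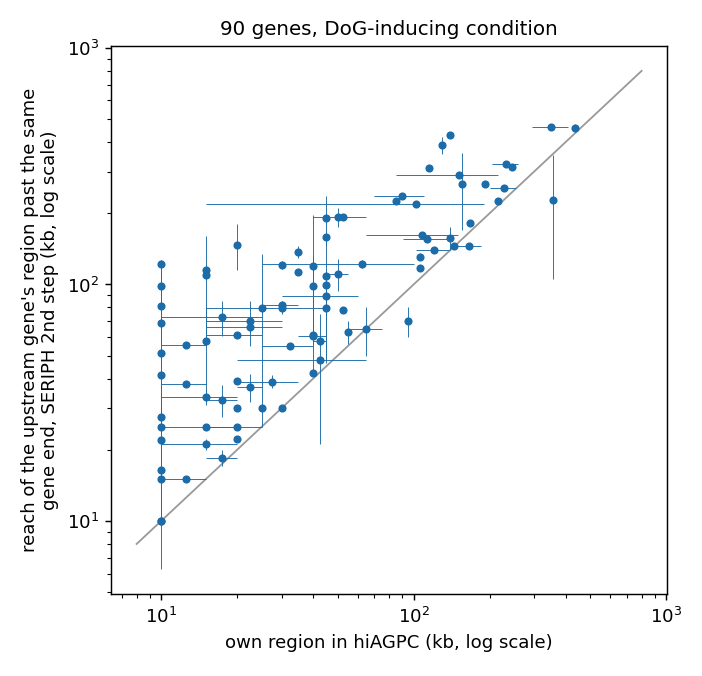
Own region of 90 genes with hiAGPC (horizontal axis, kb, log scale) against the reach of the upstream gene's region past the same gene end in the SERIPH 2nd-step fraction (vertical axis, kb, log scale), under the DoG-inducing condition. Points are means of 2 replicates, bars run from the lower to the higher replicate, and 82 points lie above the line of equality.

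The covering genes accounted for many of the DoGs whose region lengthened most between the preparations. Of the 1290 shared DoGs, 238 (18.4%) were of covering genes. Their ratio of mean length, 2nd-step over hiAGPC, had a median of 2.07, against 1.27 for the 1049 DoGs of genes neither covering nor covered. The ratio was above 3 for 80 covering genes (33.6%) and for 123 of the others (11.7%), against 15.8% of all shared DoGs. Among the 20 largest ratios, 14 were of covering genes. In control libraries none of the 30 covering genes among 372 shared DoGs had a ratio above 3. A gene becomes a covering gene through a long region, so these figures describe the set and were not tested. For the 74 covering genes of the 90 genes above that hiAGPC listed in both replicates, the median region was 55 kb with hiAGPC and 206.5 kb in the 2nd-step fraction.

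The listed length of a covering gene could differ several times between replicates while its FPKM differed little. FPKM was measured over the same stretch in every library. Of 282 covering genes listed in both 2nd-step replicates under the DoG-inducing condition, 93 (33.0%) had regions that differed by more than 2 times, with a median ratio of 3.5 and a largest of 33.2. In all 93 the FPKM of the replicates differed by at most 1.16 times, with a median ratio of 1.04. The library with the longer region had the higher FPKM in 50 and the lower in 40. With hiAGPC, 32 of 240 differed by more than 2 times in length and at most 1.15 times in FPKM, and the library with the longer region had the higher FPKM in 25 and the lower in 5. HNRNPC, with 564.0 and 45 kb, had FPKM of 4.87 and 4.66 in the same hiAGPC replicates. SLC41A1, with 10 and 331.5 kb in the 2nd-step fraction, had 1.68 and 1.72.

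The DoG FPKM of covering genes rose under the DoG-inducing condition. In the SERIPH 2nd-step fraction 269 of 295 were called higher and 6 lower than in control (limma on log2(FPKM + 0.1), Benjamini-Hochberg adjusted p under 0.05 with a log2 fold change of 1 or more in size), against 74.6% called higher and 11.7% lower of all 3139 DoGs. The median log2 fold change was 2.91 for the covering genes and 2.38 for all DoGs. With hiAGPC 239 were higher and 4 lower (70.2% and 9.14% of all DoGs), with medians of 2.21 and 1.86. With conventional AGPC 72 were higher and 5 lower (22.2% and 11% of all), and in the 1st-step fraction 73 and 5 (21.4% and 10.6%). Most DoGs moved together. With each library centred on its median, 106 covering genes were called higher and 39 lower in the 2nd-step fraction (18.5% and 28.2% of all DoGs), and 76 and 50 with hiAGPC (13.9% and 28.7%). The covering genes were found from the same reads, so their counts are not independent evidence of a direction. The stretch measured equals the longest region of any library for 3077 of 3135 DoGs, and is longer for the other 58. Where that region comes from OSCHX cells, control FPKM is averaged over a stretch chosen under the DoG-inducing condition. The direction is then set in part beforehand, here and between preparations. In these bulk samples, fewer cells with a DoG and less DoG RNA per cell cannot be told apart, and p-values measure the spread between these replicates only.

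**Figure D5:**
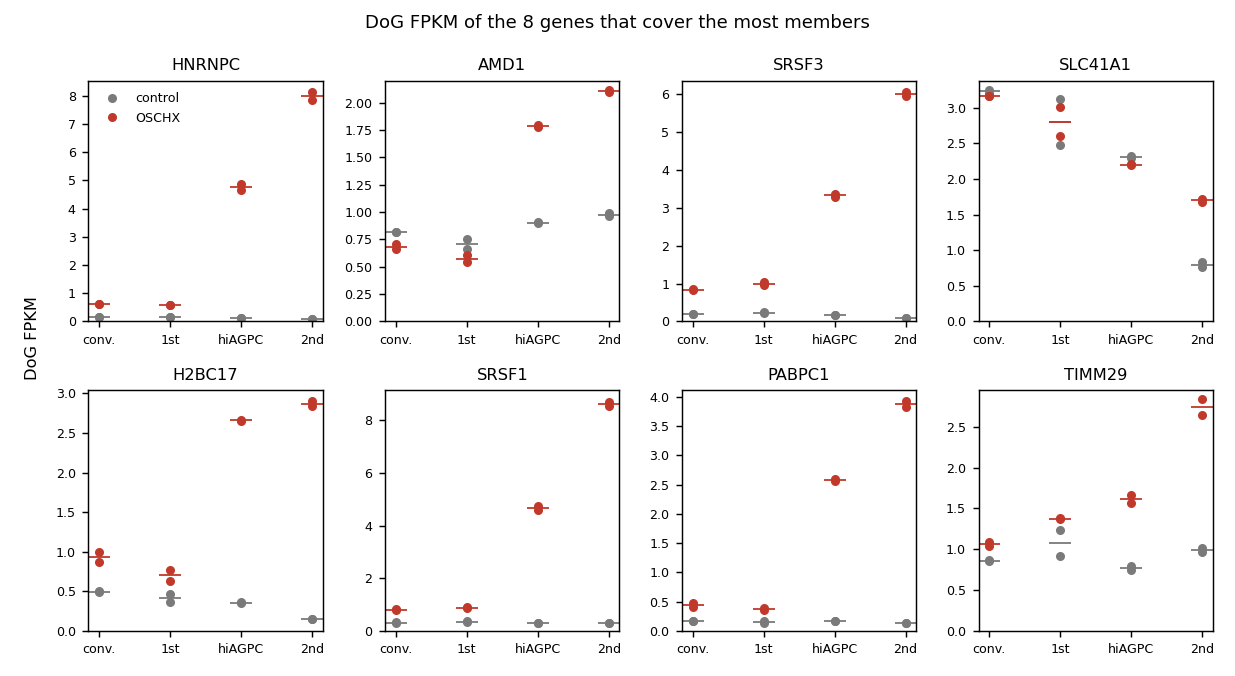
DoG FPKM (vertical axes, from 0) of the 8 genes that cover the most others, by preparation (conventional AGPC, SERIPH 1st step, hiAGPC, SERIPH 2nd step), with control libraries in grey and the DoG-inducing condition in red. Points are replicates and short lines their means. HNRNPC, SRSF3, SRSF1 and PABPC1 are highest in the 2nd-step fraction of OSCHX cells, and SLC41A1 is not.

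The DoG FPKM of HNRNPC was 0.1 in both 2nd-step control libraries and 7.84 and 8.12 under the DoG-inducing condition, a log2 fold change of 5.34 (SE 0.067, adjusted p = 3.59e-14 by limma). SRSF3 had 0.09 and 0.09 against 5.95 and 6.04 (5.00, SE 0.075, adjusted p = 5.45e-14). Both groups were far apart and their replicates close. Their FPKM stretches were the longest regions, 579.0 kb for HNRNPC and 442.3 kb for SRSF3, both from 2nd-step libraries of OSCHX cells. Control regions were 10 kb, so these fold changes and p-values follow in part from how the stretch was set. PYCARD-AS1 (0.02 and 0.03 against 7.57 and 7.14) and DDX39B (0.06 and 0.06 against 7.02 and 6.91), an RNA helicase gene of mRNA export, were the other covering DoGs among the 3 with the highest fold change. AMD1, TIMM29 (a subunit gene of the mitochondrial import machinery) and SLC41A1 were also called higher, by 1.04, 1.38 and 1.01 on the log2 scale, but with centring their values were -1.21, -0.87 and -1.24. For SLC41A1, FPKM was 2.21 and 2.19 in hiAGPC libraries that listed no region for it and 3.21 and 3.25 with conventional AGPC under control conditions. The table's stretch includes the gene bodies of the genes it covers, among them NUCKS1. How far mature RNA of covered genes contributes was not tested.

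A few covering DoGs were lower. The lowest log2 fold changes in the 2nd-step fraction were those of TRMT11, a tRNA methyltransferase gene (2.92 and 2.85 in control against 0.24 and 0.23, -3.16), of TVP23C (1.33 and 1.25 against 0.21 and 0.18, -2.24) and of POLR2J2, which resembles a subunit gene of RNA polymerase II (3.52 and 3.76 against 0.83 and 0.7, -2.12). POLR2J2 and TVP23C have near-identical relatives, so their values are uncertain where reads could be shared.

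Between preparations under the DoG-inducing condition, 220 covering DoGs were higher and 1 lower with hiAGPC than with conventional AGPC (68.7% and 0.478% of all DoGs), and 245 higher and 1 lower in the 2nd-step than in the 1st-step fraction (79.3% and 2.96%). Centred on the library medians, these became 28 higher and 39 lower (3.54% and 16% of all DoGs), and 46 higher and 49 lower (6.72% and 20.4%). Between the 2nd-step fraction and hiAGPC, 14 were called higher and 0 lower (6.85% and 1.75% of all DoGs), and by the adjusted p alone 256 were higher and 4 lower (68.7% and 4.75% of all DoGs). The median log2 fold change was 0.62 for covering DoGs and 0.52 for all. The 3 highest were DAPK3, a death-associated kinase gene (3.22 and 2.89 with hiAGPC against 6.96 and 6.46), SPEN-AS1 (0.32 and 0.28 against 0.77 and 0.73) and PRSS50 (0.43 and 0.38 against 0.95 and 0.99). With each library centred on its median, 0 were called higher and 2 lower (0% and 3.7% of all DoGs). Without centring, the median log2 fold change of covering DoGs was 0.64 when replicate 1 was left out and 0.61 when replicate 2 was.

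In control libraries more covering DoGs were called lower than higher in the 2nd-step fraction. Between the 2nd-step and the 1st-step fraction 16 were higher and 30 lower (5.42% and 10.2%, against 11% and 3.28% of all DoGs). Between the 2nd-step fraction and hiAGPC 2 were higher and 12 lower (0.678% and 4.07%, against 0.86% and 1.47%). By the adjusted p alone, 94 were higher and 79 lower (36.2% and 10.3% of all DoGs), and 75 and 49 (20.1% and 6.53%). Between hiAGPC and conventional AGPC 1 was higher and 0 lower (1.08% and 0% of all DoGs, 801 of which had an unadjusted p under 0.05). The stretches measured include bodies of covered genes, and the share of their mature RNA was not tested. SLC41A1 (2.47 and 3.12 in the 1st-step, 0.76 and 0.83 in the 2nd-step fraction) had no listed region in any control library. Nor had H2BC17 (0.37 and 0.46 against 0.15 and 0.15). A lower FPKM here is thus not in itself a lower DoG.

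Covered genes with their own region had longer regions under the DoG-inducing condition. The library median was 10 kb in each of the 8 control libraries. In OSCHX cells it was 15 and 10 kb with conventional AGPC, 10 and 12.5 kb in the 1st-step fraction, 25 and 30 kb with hiAGPC, and 35 and 45 kb in the 2nd-step fraction. Averaged over the preparations the library medians differed by 12.8 kb. The same lists chose the genes, so no test is given. Different genes were listed in different libraries, and the regions of other genes lengthened too, with library medians of 10 to 15 kb in control and 25 to 35 kb with hiAGPC and in the 2nd-step fraction of OSCHX cells.

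By gene type, lncRNA genes made up 61 of the 370. Of 319 listed lncRNA genes 19.1% belonged to the set, against 307 of 3176 protein-coding genes (9.67%). Antisense lncRNA genes were 28 of 155 listed (18.1%), for example BCAR3-AS1, UBE2R2-AS1, DLG2-AS2 and PDE9A-AS1, and divergent lncRNA genes 10 of 42 (23.8%), for example DNAJB5-DT and NQO1-DT. UBE2R2-AS1, PDE9A-AS1, NQO1-DT and MARCHF10-DT were each listed in both hiAGPC libraries and covered in both 2nd-step libraries of OSCHX cells. Zinc finger genes were 13 of 98 listed (13.3%), histone genes 6 of 33 (18.2%), genes of cytosolic and mitochondrial ribosomal proteins 5 of 63 (7.94%), solute carrier genes 4 of 43 (9.30%), and ubiquitin and proteasome genes 3 of 65 (4.62%). TMEM genes were 4 of 39, small RNA host genes 2 of 19, and kinesin and dynein genes 1 of 11. None of the 24 listed genes of respiration was in the set. Across all listed genes the share was 10.6%. Covering genes with or without an FPKM row were 5.02% of the listed lncRNA genes, 9.60% of the protein-coding genes, 20.6% of the ribosomal protein genes and 21.2% of the histone genes. These shares describe the lists, and no test of them was made.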

How the data were processed

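Total RNA of HEK293 cells was sequenced as stranded, rRNA-depleted libraries (8 groups of 2 replicates). Per the study's methods, the authors trimmed reads with fastp 0.25.0, removed rRNA with Bowtie2 2.5.4, kept unique STAR 2.7.11b alignments to GRCh38, and called DoGs with ARTDeco in windows of 5 kb (minimum length 10 kb, minimum coverage 0.5) on GENCODE v49 genes. They deposited 1 list of regions per library and 1 table of FPKM. All columns were assigned to samples.

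A gene was counted as covered in a library when the first base past its end lay inside the region of another gene on the same strand. Gene starts and types came from GENCODE v44, which held 368 of the 370 genes. Regions began at the base past the v44 gene end for 278 genes and within 1 kb of it for 346, so distances to gene starts carry that uncertainty. Covering genes were those that covered a gene in any library. This definition replaced covering in the listing library, which left 3 DoGs with FPKM, after the data had been seen. FPKM was tested as log2(FPKM + 0.1) with limma 3.58.1 (R 4.3.3) over all 3139 DoGs and 16 libraries in 1 fit of 8 groups, with Benjamini-Hochberg adjustment. The code was tested on simulated data. A permutation test of region lengths was planned but is not reported, since the lists chose the genes. The genes and lists were chosen with earlier results of these data known. Genes were named by rule: those listed in most libraries, with the longest regions, reached farthest past, or listed in control of every preparation, up to 4 examples per name class, the 8 covering genes with most covered genes, and the 3 highest and lowest covering DoGs of 2 comparisons. Other pseudocounts, a low-value filter, centring, a replicate block, other call rules and each replicate left out were tried. Some items that the rule names are not reported here.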

Additional observations from a re-analysis of the deposited data

Results flagged for a closer look

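Whether hiAGPC or the SERIPH interphase fraction listed more of the 370 genes depended on the condition. In control libraries the 2nd-step fraction listed 5 more on average (28 and 28 against 22 and 24), and under the DoG-inducing condition 115 fewer, a difference of -115 (116 and 76 against 211 and 211). As a percent of all genes listed, the 2nd-step fraction was below hiAGPC under both conditions (4.13% against 4.77% in control and 3.98% against 11.9% under the DoG-inducing condition), so the change of sign holds for the counts alone. The counts of the compared groups did not overlap under either condition. The difference between the conditions was not tested, and the listings also chose the genes.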

How the results depend on the processing

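Of 182 alternative values for 23 results, 128 kept their direction and their side of the threshold or stayed close to the reported value. For differences in listed genes between single groups of 2 libraries, only the direction could change. A permutation of 2 against 2 libraries has 6 arrangements, too few to pass the threshold. With a replicate left out, these differences had no p-value. The 128 values include such cases, so for them the count shows a kept sign alone. The results on the number of listed genes and on their region lengths rest on the lists that chose the genes. For those results, a kept side of the threshold is no support. As a percent of all genes listed, 5 differences in the number of listed genes changed sign: -0.149 percentage points for the DoG-inducing condition against control in the 2nd-step fraction, -0.802 for hiAGPC against conventional AGPC in control, -0.899 and -5.43 for the 2nd-step against the 1st-step fraction in control and under the DoG-inducing condition, and -0.643 for the 2nd-step fraction against hiAGPC in control. More genes were listed in all in the first of each pair. The mean difference in listed genes between the conditions was 75.5 per library, 70 to 81 with a replicate left out, and 0.625 for genes covered in the listing library. The difference in median length was 11.25 to 14.4 kb with a replicate left out. Regions starting inside another region of the same library made up 0.529%, 0.990% for regions of at least 20 kb, and 100% when any library counted.

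Counts of covering DoGs called higher follow in the order DoG-inducing condition against control (conventional AGPC, 1st-step, hiAGPC, 2nd-step), then between preparations. With a pseudocount of 0.01 they were 136 and 134 for conventional AGPC and the 1st-step fraction, 4 for hiAGPC against conventional AGPC, 45 for 2nd-step against 1st-step and 4 for 2nd-step against hiAGPC in control, and 29 for 2nd-step against hiAGPC under the DoG-inducing condition. With a pseudocount of 1 they were 3, 2 and 89 for the first 3, then 0, 2 and 0 in control, and 45, 143 and 0 under the DoG-inducing condition. Shares over all DoGs were not computed for either pseudocount. These counts thus do not show whether covering DoGs differ from DoGs in general. With centring they were 29, 24, 76 and 106 (8.6%, 8.89%, 13.9% and 18.5% of all DoGs). In control they were then 9 (2nd-step against 1st-step) and 0 (2nd-step against hiAGPC), with 5.99% and 0.159% of all DoGs. Under the DoG-inducing condition they were 28, 46 and 0 (3.54%, 6.72% and 0% of all DoGs). By adjusted p alone they were 215 and 210 for the first 2 (57.9% and 57% of all DoGs were called higher), 31, 94 and 75 in control (11.5%, 36.2% and 20.1% of all), and 256 for 2nd-step against hiAGPC under the DoG-inducing condition (68.7% of all). For the 3 DoGs covering in the listing library they were 1, 0, 2 and 3, then 0, 0 and 0, and 2, 3 and 0. With a replicate left out, counts for the 2nd-step fraction against hiAGPC were 1 to 2 in control and 10 to 26 under the DoG-inducing condition. The replicate was left out of the groups compared, whose lone libraries were assumed to vary like the other groups. The cause of these changes was not tested. No value could be computed where no gene remained covered in the listing library.

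Preparations share samples, but no source used here states that equal replicate numbers mark them. Deviations of same-numbered libraries correlated between -0.104 and 0.143 over 28 pairs of groups, 3 of them over 0.1. With a replicate block the median length difference stayed 12.8 kb, the 2nd-step fraction against hiAGPC gave 15 covering DoGs called higher in place of 14, and the other counts were equal. FPKM rounded to 0.01 limits values in control libraries.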
